A study of Mus musculus with 24 samples.

Results

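The loci examined were those of 10 imprinted genes for which control by CTCF has been described: H19, Igf2, Kcnq1, Cdkn1c, Grb10, Mest, Peg3, Dlk1, Meg3 and Plagl1. Each gene body was extended by 20 kb on each side in mouse build mm9 (GENCODE vM1 annotation), with H19 to Igf2 and Dlk1 to Meg3 each taken as 1 locus. This gave 8 loci covering 1044610 bp (the Kcnq1 and Cdkn1c windows overlap by 8701 bp, with no site in the overlap), from 10 of the 37310 annotated genes. Overlapping CTCF and Rad21 peaks of all 16 lists were merged into sites, and the loci held 35 of the 90338 merged mouse sites. A CTCF peak of at least 1 library lay in 24 of these 35 sites, and a Rad21 peak in 34.

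The peaks come from chromatin immunoprecipitation with sequencing (ChIP-seq) of mouse pro-B cells, early B-cell precursors, that were transformed with v-Abl and are held in culture as lines. All lines carry Emu-Bcl2, are RAG2 deficient and received 3 µM STI-571, an inhibitor of the Abl kinase, for 4 days. CTCF and Rad21 were each measured in the parental line without IAA (3 libraries each) and in the CTCFdegron line with IAA (3 libraries each). Rad21 was also measured in the Rad21degron line without IAA (2 libraries) and with IAA (2 libraries). IAA is an auxin that starts breakdown of the degron-tagged protein. It was given at 500 µM for 6 h, and then together with STI-571. In the CTCF comparisons the cell line and the IAA change together, so their effects cannot be told apart. Nothing in the labels says that replicates were separate cultures, so the spread between libraries may be technical.

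The lists held 1384 to 67810 mouse peaks each. Of these, 22 to 24 per library lay in the loci in parental CTCF lists and 3 to 5 in CTCFdegron CTCF lists. For Rad21 the numbers were 14 to 34 in parental cells, 7 to 12 in CTCFdegron cells with IAA, 10 to 15 in Rad21degron cells without IAA, and 0 to 1 with IAA. Replicate 1 of the parental and CTCFdegron Rad21 groups had no human spike-in, whereas replicates 2 and 3 did, and replicate 1 of each had the longest list of its group. The depth of the libraries is unknown, since peak lists carry no read counts, and a missing peak means only that none was listed. The lists do not separate the maternal from the paternal allele. Peak lists measure no expression, so the labelled cell type could not be checked against markers.

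Imprinted genes are expressed mainly from the allele inherited from one parent, and each cluster is governed by a control region whose DNA methylation differs between the parental alleles. CTCF is a zinc finger protein that binds DNA directly and, at the H19 control region, only the unmethylated maternal copy, where it keeps enhancers on the far side of H19 from acting on Igf2. Cohesin, the ring complex that contains Rad21, extrudes chromatin loops and comes to rest at bound CTCF. Methylation of CG steps within the binding sequence is known to block CTCF there.

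The sequences below are stretches in the loci found by 8 letters of the CTCF consensus or by a CTCF weight matrix. The letter matches upstream of H19 all scored below the matrix threshold, with scores given further on. The first set comes from the merged site just upstream of H19, where the letters GGNGGCAG, searched on both strands, occurred 5 times. All 5 lay on the minus strand, which is the coding strand of H19. Capitals mark the 8 letters, and each line gives the minus strand 5′ to 3′ in mm9.
H19 upstream match 1, chr7:149766214-149766221: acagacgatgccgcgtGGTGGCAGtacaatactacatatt
H19 upstream match 2, chr7:149766669-149766676: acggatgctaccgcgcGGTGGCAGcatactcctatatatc
H19 upstream match 3, chr7:149767695-149767702: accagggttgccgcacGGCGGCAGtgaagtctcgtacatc
H19 upstream match 4, chr7:149767814-149767821: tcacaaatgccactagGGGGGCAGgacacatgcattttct
H19 upstream match 5, chr7:149767939-149767946: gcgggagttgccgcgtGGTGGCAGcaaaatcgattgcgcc
Matches 1, 2 and 5 each have adjoining CG steps just before the capitals. Match 3 differs from them there, and match 4 has no CG step. In the 20 bases around each match, the number of CG steps was 2, 3, 3, 0 and 2 in that order. Of 1665 windows of equal length placed 5 kb from CTCF sites elsewhere, 0.961% held as many copies of these letters.

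The other sequences are the best matches at the strongest CTCF site of each further locus that had one. They were found with a CTCF weight matrix of 20 columns, learned from CTCF sites on chromosomes that hold none of the loci. Capitals mark the 20 matched bases, written 5′ to 3′ on the strand given.
Kcnq1 site 5, chr7:150339898-150339917, plus strand: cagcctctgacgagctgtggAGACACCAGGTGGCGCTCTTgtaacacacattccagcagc
Cdkn1c site 3, chr7:150656059-150656078, minus strand: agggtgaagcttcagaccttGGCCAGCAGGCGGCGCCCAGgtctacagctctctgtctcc
Grb10 site 13, first match, chr11:11873604-11873623, minus strand: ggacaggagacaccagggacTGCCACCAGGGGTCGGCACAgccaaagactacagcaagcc
Grb10 site 13, second match, chr11:11875087-11875106, minus strand: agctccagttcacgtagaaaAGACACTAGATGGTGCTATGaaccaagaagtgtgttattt
Dlk1 to Meg3 site 2, chr12:110676115-110676134, plus strand: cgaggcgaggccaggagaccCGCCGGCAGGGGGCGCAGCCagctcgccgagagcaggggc
Plagl1 site 1, chr10:12807201-12807220, plus strand: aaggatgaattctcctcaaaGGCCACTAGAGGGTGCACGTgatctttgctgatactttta
Sites are numbered within a locus along the chromosome. The Dlk1 match held 3 CG steps and the second Grb10 match none. A match is a description of the letters and does not show which base is bound.

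A CTCF control site is a union of overlapping parental CTCF peaks that a peak of each of the 3 parental libraries overlaps. The loci held 18, and 16 of them (88.9%) had a matrix match within the central 300 bases, against 70.5% of 33372 CTCF sites of the genome. The threshold for a match was set so that 5% of windows placed 5 kb away reached it. The letters GGNGGCAG stood in 8 of the 18 (44.4%) and in 17.9% of all CTCF sites. The matrix and the letters are not independent, because the letters form part of the CTCF consensus. Among these 8, however, the matrix match held the letters only at Cdkn1c sites 1 and 2. At Kcnq1 site 3, Cdkn1c site 3 and Dlk1 to Meg3 site 1, the letters lay outside the matrix match. At Grb10 site 13 they overlapped the first match in part, on the other strand. The 2 sites without a matrix match were both upstream of H19. Matches 2, 3 and 4 there lay within the central 300 bases and scored 9.25, 5.5 and -8.78, under the threshold of 10.9. Matches 1 and 5 lay outside those bases and scored 10.2 and 10.0. With the central 100 bases in place of 300, 7 of the 18 had a matrix match, against 36.7% of all CTCF sites.

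H19 encodes a maternally expressed noncoding RNA, and Igf2 a paternally expressed fetal growth factor in the same domain. The widest site of the locus, site 2, spanned 2335 bp of intergenic sequence centred at -2964 bp from the H19 start, where negative distances lie upstream on the gene's strand. It held 2 CTCF control sites, at chr7:149766023-149767060 with matches 1 and 2, and at chr7:149767292-149768179 with matches 3 to 5. At the first, the authors' fold enrichment of the CTCF peak was 6.84, 6.15 and 6.35 in the parental libraries, and at the second it was 6.00, 6.36 and 7.43. None of the 3 CTCFdegron libraries listed a CTCF peak at either, so both were lost, as were 71.7% of all 33715 CTCF control sites of the genome.

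Rad21 covered the same stretch upstream of H19. Its highest fold enrichment there was 13.8, 10.4 and 6.20 in the parental lists, and 5.64 and 7.31 in the Rad21degron lists without IAA. After CTCF depletion, replicates 1 and 2 still listed a Rad21 peak, at 4.31 and 4.38, and replicate 3 listed none. Those peaks lay at chr7:149766109-149766678 and chr7:149766181-149766720, over the CTCF control site nearer to H19 that holds matches 1 and 2. No Rad21 peak was listed over matches 3 to 5 in any CTCFdegron library. With Rad21 depleted, both libraries listed none over either. A further weak Rad21 peak, site 1 at -979 bp, was listed at 3.76 in parental replicate 1 alone.

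**Figure D1:**
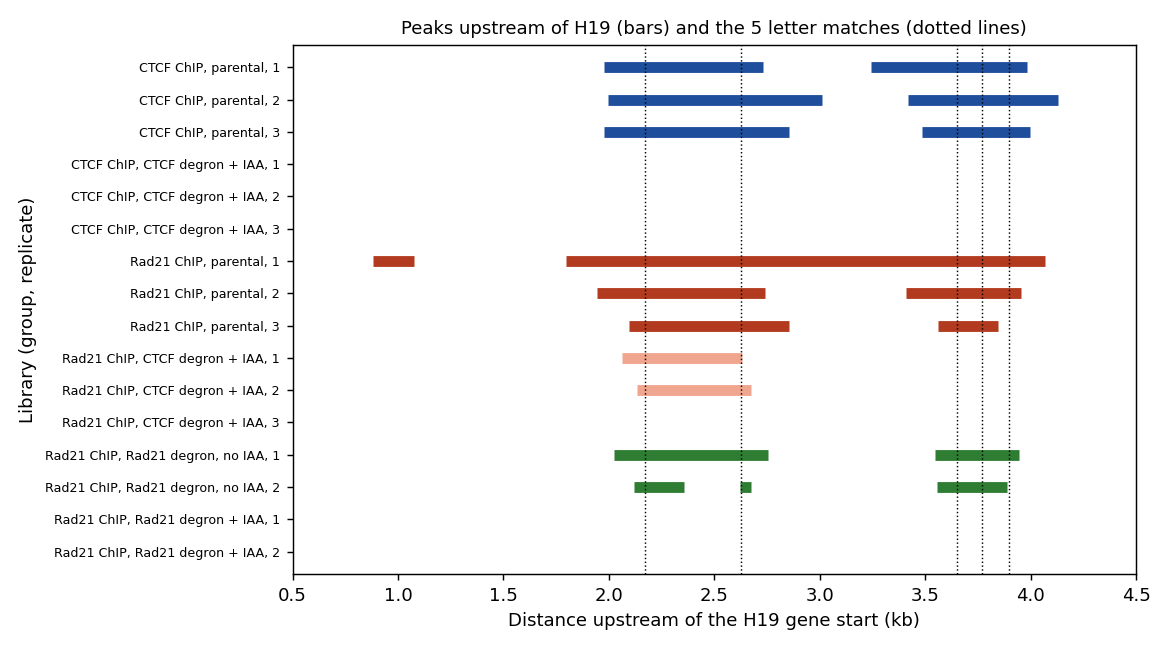
Peaks upstream of H19, with distance from the H19 gene start in kb on the x axis and the 16 libraries on the y axis. Bars are listed peaks and dotted lines the 5 matches to GGNGGCAG: all parental CTCF libraries list peaks over both groups of matches, and the Rad21 peaks left in CTCFdegron replicates 1 and 2 cover only the group nearer to H19.

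Between H19 and Igf2, site 3 at chr7:149796599-149796860 lay at -32682 bp from H19 in intergenic sequence. Its CTCF fold enrichment was 4.99, 5.27 and 5.43 in the parental lists, and no Rad21 list had a peak there. It was the only one of the 35 sites with CTCF peaks but no Rad21 peak in any list. Upstream of Igf2, site 4 at -5512 bp listed CTCF at 4.87, 5.17 and 6.38 and Rad21 at 8.83, 6.43 and 4.35 in parental cells. Site 5 at -8960 bp from Igf2 lay 3757 bp downstream of the start of Ins2, an insulin gene, and listed CTCF at 6.23, 4.43 and 6.60 and Rad21 at 8.17, 8.07 and 5.03. Neither kept a CTCF or Rad21 peak in a CTCFdegron library. Site 5 alone of this pair had Rad21 in the Rad21degron line without IAA, at 3.67 and 3.80, and it had none with IAA.

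Over the whole H19 to Igf2 locus, CTCF peaks numbered 5, 5 and 5 in parental cells and 0, 0 and 0 after CTCF depletion. Rad21 peaks numbered 4, 4 and 4 against 1, 1 and 0. The Rad21degron lists held 3 and 4 without IAA and 0 and 0 with IAA. The groups did not overlap in any of these comparisons. The same held for 68.1%, 21.3% and 70.1% of gene windows with a peak, of any length, in that order. With every list shortened to the shortest, the difference was 0.0 peaks for CTCF and 0.0 for Rad21 after Rad21 depletion, and -2.67 for Rad21 after CTCF depletion. The protein-coding gene windows whose 16 peak numbers were most like those of the H19 to Igf2 locus were Spats2, Sstr5 and Zfp831, each with a summed absolute difference of 4 peaks over the 16 lists.

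**Figure D2:**
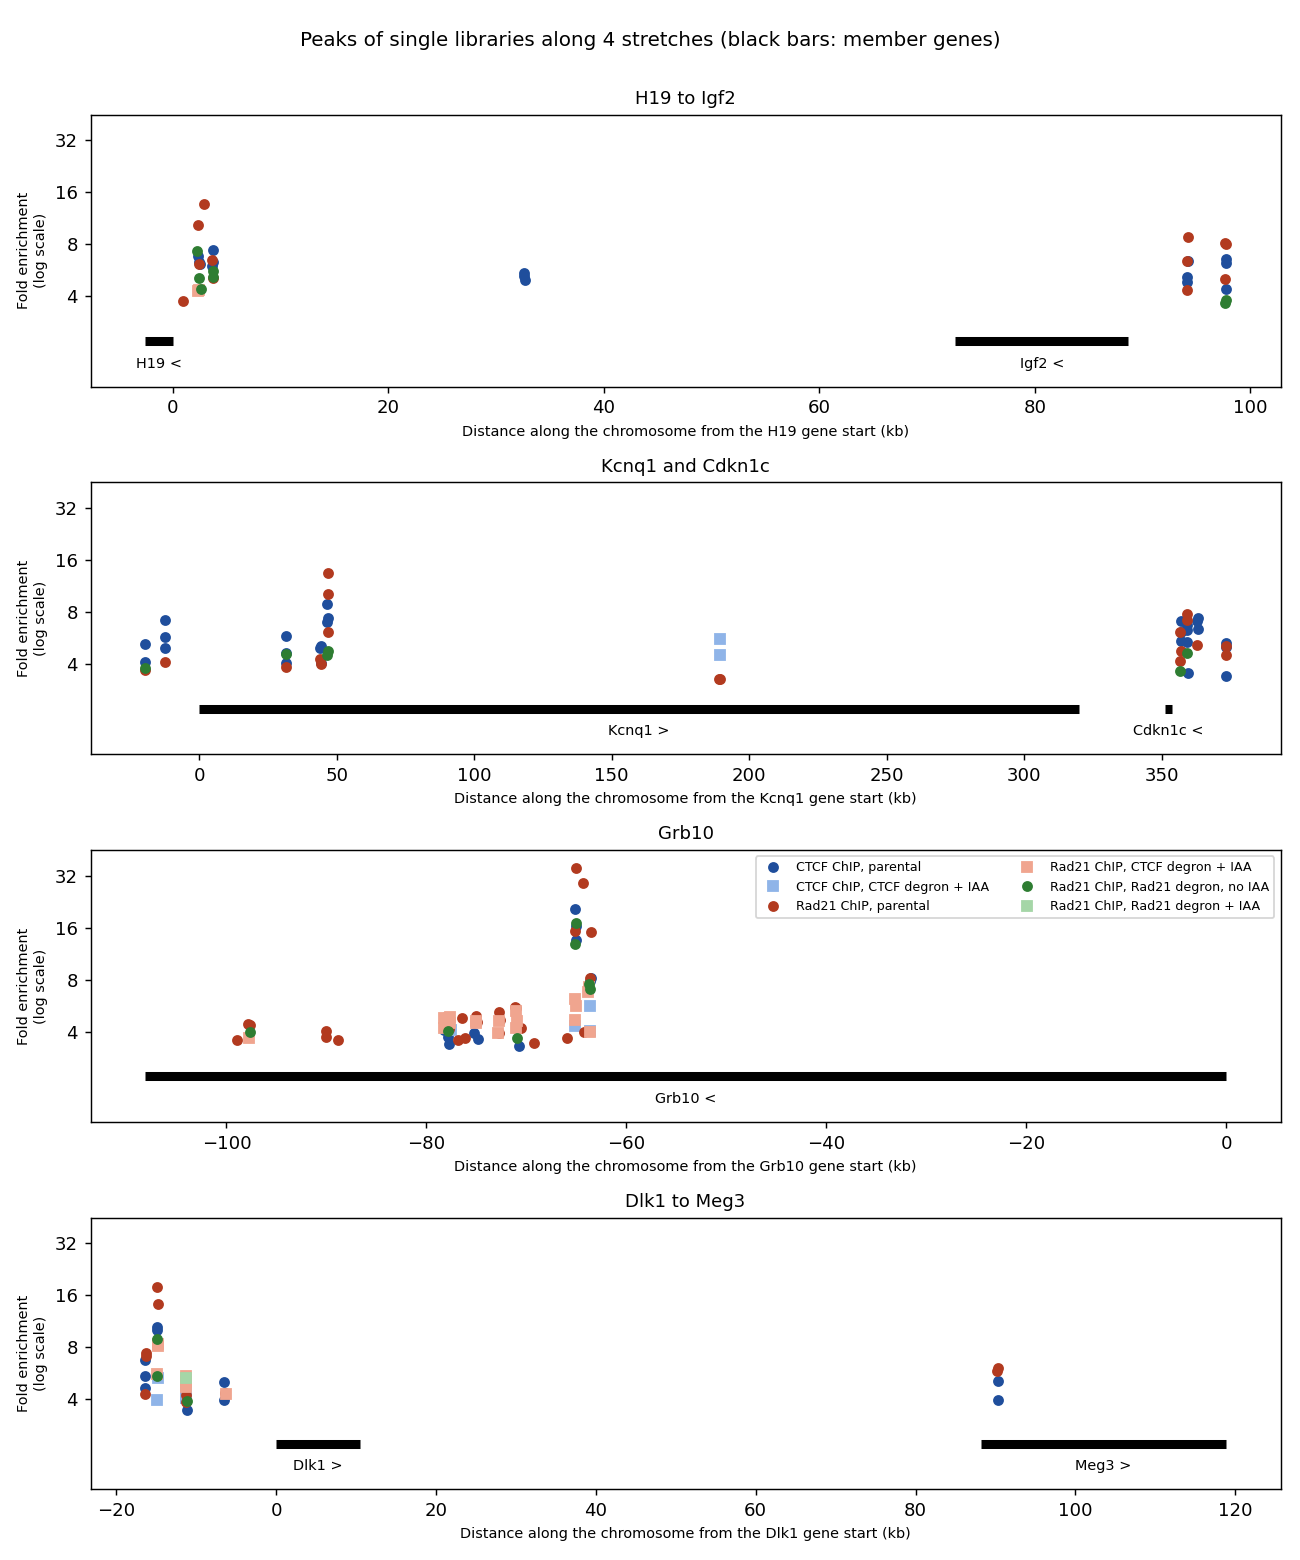
Peaks of single libraries along 4 stretches, with distance along the chromosome from a gene start in kb on the x axis and the authors' fold enrichment on a logarithmic y axis. Each point is 1 peak, colour gives the group, and black bars are gene bodies with their direction: points of the CTCFdegron libraries gather in Grb10 and upstream of Dlk1, with few elsewhere.

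Kcnq1 encodes a voltage-gated potassium channel, and Cdkn1c the cyclin-dependent kinase inhibitor p57, both maternally expressed in the same domain. The start of the antisense RNA Kcnq1ot1, which begins within Kcnq1 and silences the domain on the paternal allele, was not used here. The strongest CTCF site in Kcnq1 was site 5, in an intron 5240 bp after the nearest transcript start, with parental CTCF at 7.37, 6.99 and 8.86 and parental Rad21 at 13.4, 10.1 and 6.14. The Rad21degron libraries without IAA listed Rad21 there at 4.73 and 4.51. No peak remained at this site in any of the depleted libraries. It was also the only Rad21 control site of Kcnq1, that is, a site with Rad21 in all 3 parental libraries.

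The next strongest CTCF site was site 2, at -218 bp from a start of Trpm5, a neighbouring channel gene, with CTCF at 5.72, 4.95 and 7.22 and Rad21 at 4.13 in parental replicate 1 alone. Site 4, in an intron 2695 bp after a Kcnq1 start, listed CTCF at 4.92, 4.07 and 5.05 and Rad21 at 4.01 and 4.28 in parental replicates 1 and 2. Both lost CTCF in all 3 depleted libraries. The locus therefore had CTCF at several places where Rad21 was listed in part of the parental libraries. Deep in the gene, site 7 at chr7:150482427-150482677 had the reverse pattern: no parental CTCF peak, and CTCF at 5.61 and 4.53 in CTCFdegron replicates 2 and 3. Taken with a short flank on each side, this site of 251 bp held 11 CG steps and no matrix match. Rad21 was listed there at 3.26 in parental replicate 1. It was not a gained site, which needs a peak in every depleted library.

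CTCF peaks in the Kcnq1 locus numbered 4, 5 and 5 in parental cells and 0, 1 and 1 after CTCF depletion, which do not overlap. Rad21 peaks there numbered 7, 2 and 1 against 0, 0 and 0, and 2 and 2 against 0 and 0 with Rad21 depleted. The spread among parental Rad21 libraries followed the length of their lists. Where every list of the comparison was shortened to the shortest one, the difference for CTCF in Kcnq1 turned to 0.67 more peaks in depleted cells.

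All 4 CTCF sites of Cdkn1c lay upstream of the gene, at -2981, -5476, -9195 and -19626 bp, the last in an intron of Slc22a18, a transporter gene. The highest ranked was site 3, with parental CTCF at 7.08, 6.39 and 7.35 and Rad21 at 5.18 in replicate 1 alone. Site 1, nearest to the start, listed CTCF at 5.46, 6.15 and 7.09 and Rad21 at 6.10, 4.73 and 4.18, and was the only one with Rad21 in every parental library. Site 2 listed Rad21 more strongly, at 7.81 and 7.16, but not in parental replicate 3. CTCF peaks numbered 4, 4 and 5 in parental cells and 0, 0 and 0 after CTCF depletion, and Rad21 peaks 4, 3 and 1 against 0, 0 and 0. The Rad21degron lists held 2 and 0 of them without IAA and 0 and 0 with IAA, which overlap. With every list shortened to the shortest, the CTCF difference was 0.0 peaks and the Rad21 difference after CTCF depletion -0.67.

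Grb10 encodes an adaptor protein that restrains insulin and growth factor signalling, and it is expressed from the maternal allele in most tissues and from the paternal allele in neurons. Its locus held 13 of the 35 sites, all within the gene. The strongest site of all the loci, by rank in its lists, was site 13, which spanned 2624 bp of an intron, centred at -3662 bp from the nearest Grb10 transcript start. CTCF was listed there at 13.5, 16.4 and 20.4 in parental cells, at 4.03 and 5.61 in CTCFdegron replicates 1 and 2, and not in replicate 3. Rad21 was listed at 28.8, 35.6 and 15.3 in parental cells and at 6.78, 7.26 and 4.67 in all 3 CTCFdegron libraries. The mean percentile rank of its stronger CTCF control site was 99.5 in the parental lists, and that of Rad21 was 99.9.

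Site 13 held 2 CTCF control sites, each with 1 of the matches printed above. The stronger one, at chr11:11873132-11874109, kept a CTCF peak of 51 bp in CTCFdegron replicate 2 only, at chr11:11873525-11873575, which did not reach the first match. The weaker one, at chr11:11874385-11875528 with parental CTCF at 7.87, 6.99 and 8.17, kept peaks in replicates 1 and 2, at 4.03 and 5.61. Both residual peaks of the weaker site, at chr11:11875022-11875167 and chr11:11875036-11875126, covered the second match. Rad21 was listed over both control sites in every CTCFdegron library. Both had Rad21 in the Rad21degron line without IAA, the stronger one at 17.0 and 12.8 and the weaker one at 7.08 and 7.57, and neither had it with IAA.

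The other 12 Grb10 sites were weaker Rad21 sites, with parental fold enrichments between 3.45 and 5.55, and 3 of them had a parental CTCF peak in 1 or 2 libraries. Of these 12, 5 had a peak in parental Rad21 replicate 1 and in no other list. Sites 1, 11 and 12, at -1169, 1173 and -2079 bp from a Grb10 transcript start, were among these, at 3.59, 3.45 and 3.67, as was site 4 at -3479 bp, at 3.57. Sites 2 and 3, at -2264 and -2292 bp from other starts, had Rad21 in parental replicates 1 and 2, at 4.42 and 4.37 for site 2 and at 3.72 and 4.05 for site 3. Of this pair only site 2 was listed after CTCF depletion, at 3.66 in replicate 1. Sites 5, 9 and 10 had Rad21 in every parental library without being at a CTCF control site. Site 5, 1451 bp wide, listed Rad21 at 4.86, 4.71 and 4.16 in parental cells and at 4.79, 4.85 and 4.80 in CTCFdegron cells. Site 10 overlapped a Grb10 exon and listed 4.22, 5.45 and 5.55 against 5.23, 4.60 and 4.22. Site 9 listed 4.66, 3.94 and 5.20 against 4.63 and 3.92, with none in CTCFdegron replicate 3. None of the 3 had a matrix match at the threshold used. In the Rad21degron line without IAA, site 5 was listed at 4.02 and site 10 at 3.69 in replicate 1, and neither was listed with IAA.

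Rad21 peaks in the Grb10 locus numbered 13, 10 and 5 in parental cells and 8, 7 and 5 after CTCF depletion, and these groups overlap. CTCF peaks numbered 4, 3 and 5 against 1, 2 and 1, which do not. The Rad21degron lists held 5 and 2 Rad21 peaks without IAA and 0 and 0 with IAA. With every list shortened to the shortest, Rad21 in Grb10 turned to 2.0 more peaks after CTCF depletion.

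Dlk1 encodes a noncanonical Notch ligand expressed from the paternal allele, and Meg3 a noncoding RNA expressed from the maternal allele. The locus lies on chromosome 12, which the authors' hybrid genome alters further along. In the stretch that holds it, 80.8% of 104 CTCF sites had a matrix match, so coordinates there were read as mm9. The strongest site was site 2, intergenic at -14981 bp from Dlk1, with CTCF at 10.1, 8.70 and 10.5 in parental cells and at 3.94 and 5.28 in CTCFdegron replicates 1 and 2. Rad21 was listed there at 17.9, 14.3 and 8.20 in parental cells and at 8.15, 8.30 and 5.59 in all 3 CTCFdegron libraries. The CTCF peaks left, at chr12:110676092-110676203 and chr12:110676059-110676286, covered the match printed above. Rad21degron libraries listed Rad21 there at 8.89 and 5.47 without IAA and none with IAA.

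Its neighbour, site 1 at -16305 bp, listed CTCF at 4.64, 5.43 and 6.73 and Rad21 at 7.35, 7.08 and 4.31 in parental cells. It lost both in every CTCFdegron library, so the pair of control sites upstream of Dlk1 differed in whether peaks remained. Site 3, at -11320 bp, was the only one of the 35 sites with a CTCF peak in all 3 CTCFdegron libraries, at 4.05, 4.65 and 4.06, and in parental cells it was listed at 3.46 in replicate 1 alone. Rad21 there was listed at 3.85 and 4.25 in parental replicates 1 and 2 and at 5.02, 5.48 and 4.70 in CTCFdegron cells. It also held the only peak in the loci after Rad21 depletion, at 5.30 in replicate 1, where the library of the same number without IAA listed 3.89. Site 3 had no matrix match.

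At Meg3, site 5 overlapped an exon, centred 823 bp after a transcript start, and had a matrix match with 4 CG steps. It listed CTCF at 5.11 and 3.93 and Rad21 at 6.05 and 5.83, both in parental replicates 1 and 2, and nothing in any other list. CTCF peaks in the Dlk1 to Meg3 locus numbered 4, 4 and 3 in parental cells and 2, 2 and 1 after CTCF depletion, which do not overlap. Rad21 peaks numbered 5, 4 and 2 against 3, 2 and 2, and 2 and 1 against 1 and 0 with Rad21 depleted, and both of these overlap. With lists shortened to the shortest, the Rad21 differences turned to 0.33 more peaks after CTCF depletion and 0.5 more after Rad21 depletion.

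Plagl1, which encodes a zinc finger transcription factor expressed from the paternal allele, had a single site, intergenic at -3264 bp from its nearest transcript start. CTCF was listed there at 8.20, 9.13 and 12.5 in parental cells, and Rad21 at 18.3, 14.3 and 6.03. In the Rad21degron line without IAA, Rad21 was listed at 8.12 and 6.15. No depleted library of any kind listed a peak. Its mean CTCF rank in the parental lists was 89.3, close to the 88.9 of the Dlk1 control site at which CTCF peaks remained in 2 libraries.

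Mest, which encodes a protein of the hydrolase fold family, and Peg3, which encodes a zinc finger protein, are both paternally expressed, and neither locus held a peak in any of the 16 lists. The nearest peak of any list lay 9614 bp outside the Mest window, at the start of Tsga14, and 24002 bp outside the Peg3 window. The nearest parental CTCF peak to Mest lay 128075 bp outside its window, at a start of Copg2. Among gene windows whose length was within 10% of the Mest window, 11.7% of 3483 were without a peak, and for the Peg3 window it was 11.4% of 3288. Empty windows of this length therefore occurred at other genes too.

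**Figure D3:**
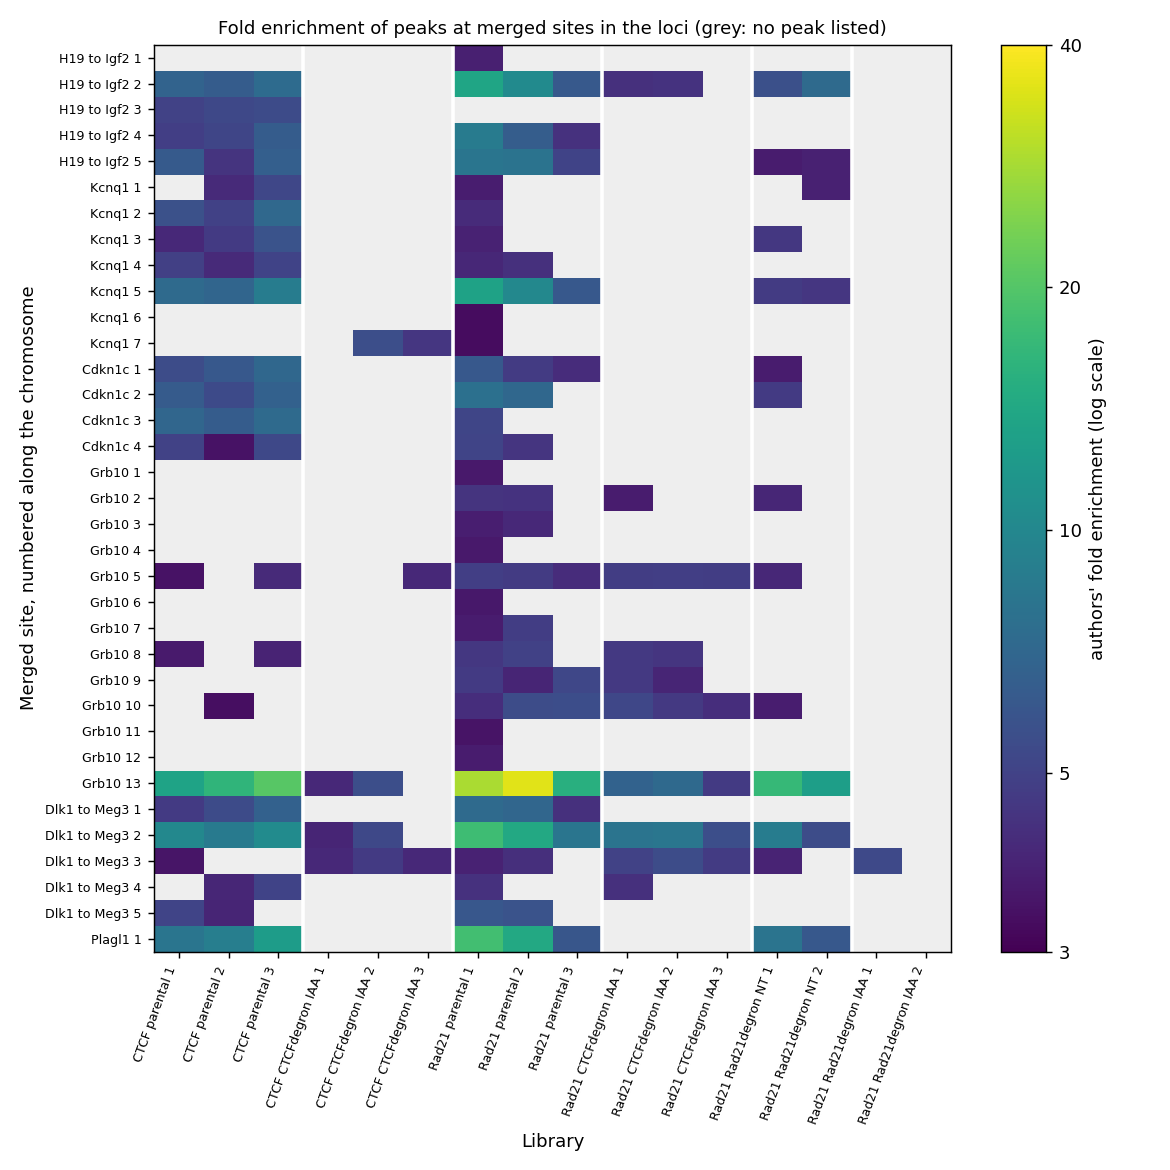
The authors' fold enrichment at each of the 35 merged sites (y axis) in each of the 16 libraries (x axis), on a logarithmic colour scale, with grey where no peak was listed. In the CTCFdegron CTCF lists the colour is confined to sites of Kcnq1, Grb10 and Dlk1 to Meg3, and 1 site keeps a peak in a Rad21degron library with IAA.

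Over all loci, the fate of the 18 CTCF control sites after CTCF depletion was compared with that of all such sites. No peak of any CTCFdegron library overlapped 15 of the 18, and none of the 18 had one in all 3 libraries. Across the genome, 71.7% of 33715 sites were lost in this sense and 12.9% kept a peak in all 3. The losses were 5 of 5 in H19 to Igf2, 4 of 4 in Kcnq1, 4 of 4 in Cdkn1c, 1 of 1 in Plagl1, 1 of 2 in Dlk1 to Meg3 and 0 of 2 in Grb10. The percent of sites kept was 11.1, 16.7 and 0 in the 3 libraries, or 9.26% ± 8.49 (SD, n = 3), against 20.9, 25.8 and 14.3, or 20.4% ± 5.76 (SD, n = 3), over all sites. The mean for the loci was 5.56% without CTCFdegron replicate 2 and 13.9% without replicate 3. The value was lower for the loci than for all sites in each library, and no test was made of that difference. The loci held 1 site with CTCF in every CTCFdegron library, which was not gained, against 3.64% gained of 5823 such sites of the genome. In the parental lists the CTCF sites of the loci had a median percentile rank of 64.0, against 65.0 for all sites, with a range of 38.7 to 99.5.

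Of 12 Rad21 control sites, 6 had no peak in any CTCFdegron library and 4 had one in all 3, against 41.5% and 35.5% of 25027 sites of the genome. The 4 kept were 3 in Grb10 and 1 upstream of Dlk1. The percent kept was 50.0, 50.0 and 33.3 in the 3 libraries, or 44.4% ± 9.62 (SD, n = 3), against 56.8, 52.6 and 36.0, or 48.5% ± 10.97 (SD, n = 3), over all sites. Here too the value was lower for the loci in each library, by less than 1 site of 12 each, and no test was made of it. Of 7 sites in the loci with Rad21 in every CTCFdegron library, 0 were gained, against 1.30% of 12559 such sites of the genome. Without parental replicate 3, which has the shortest parental Rad21 list, 11 of then 20 sites were lost (55.0%, against 47.1% of all sites). With both groups restricted to the spike-in libraries, 8 of 14 sites were lost (57.1%, against 47.5% of 25818 sites of the genome). Each of the 6 loci with peaks then had fewer Rad21 peaks on average after CTCF depletion, as in all libraries.

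The 9 Rad21 control sites that overlap a CTCF control site were set beside the 3 that do not, which all lie in Grb10. Of these 3, site 5 nonetheless listed CTCF in parental replicates 1 and 3, at 3.39 and 4.10, and in CTCFdegron replicate 3, at 4.06, and site 10 in parental replicate 2, at 3.31. At CTCF sites 29.6% ± 6.42 (SD, n = 3) were kept and at the other 3 sites 88.9% ± 19.2 (SD, n = 3). Over the genome these values were 42.4% ± 9.36 of 20196 sites and 73.7% ± 17.7 of 4831 sites (SD, n = 3). In the loci this difference of -59.3 percentage points rests on 3 neighbouring sites of 1 gene, and it is -27.6 without parental replicate 3. It turned to 50.0 with the lists shortened to the shortest and to 20.7 with sites of at least 1 parental library.

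Rad21 at the 18 CTCF control sites was also counted directly. In parental cells every Rad21 library had a peak at 11 of them (61.1%) and at 60.5% of all CTCF sites, and at least 1 library at 17 (94.4%) and 94.4%. After CTCF depletion every Rad21 library had a peak at 3 of the 18 (16.7%) and at 20.3% of all CTCF sites, and at least 1 library at 4 (22.2%) and 39.6%. Those 4 were the H19 control site nearer to the gene, both Grb10 sites and the stronger site upstream of Dlk1. At 3 of these 4, a CTCF peak was also left in at least 1 CTCFdegron library, the exception being the H19 site.

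In the Rad21degron line, 8 Rad21 control sites were present in both libraries without IAA: 3 in H19 to Igf2, 2 in Grb10, and 1 each in Kcnq1, Dlk1 to Meg3 and Plagl1. All 8 were lost with IAA and 0 were kept in both libraries, against 92.6% and 2.68% of 18740 sites. All 8 overlap a CTCF control site, a share that was not calculated over the genome for this line. Among parental Rad21 control sites of the genome, 20196 of 25027 overlap one. Without replicate 2 of the libraries lacking IAA, 14 of then 15 sites were lost (93.3%, against 92.9% of all sites). The single peak with Rad21 depleted was the one at site 3 upstream of Dlk1, which is not a control site.

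**Figure D4:**
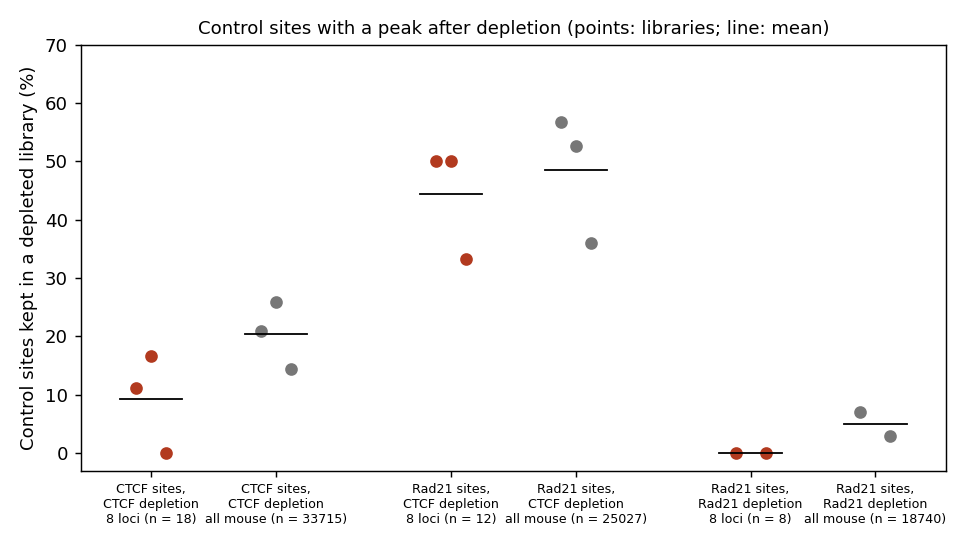
Percent of control sites with a peak in each depleted library (y axis) for the 3 comparisons, in the 8 loci (red) and over all mouse sites (grey). Points are libraries, lines are means and n is the number of control sites: in both comparisons after CTCF depletion each library is lower in the loci than over all sites, and the ranges of the loci and of all sites overlap.

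The number of peaks per locus was tested with the library as the unit. CTCF peaks were fewer in every CTCFdegron library than in any parental library at all 6 loci that had peaks, as at 68.1% of 26373 gene windows. At each of them p was 0.1 in an exact permutation test (two-sided), the lowest value possible with 3 libraries a group, and 0.147 after Benjamini-Hochberg adjustment over all windows. For Rad21 after CTCF depletion, 4 of the 6 loci had groups that did not overlap (H19 to Igf2, Kcnq1, Cdkn1c and Plagl1), against 21.3% of windows. The gene windows behind such shares, here and below, were not matched to the loci in length or number of peaks. For these 4 loci the exact p was 0.1 (adjusted 0.466), for Dlk1 to Meg3 it was 0.4 (adjusted 0.773) and for Grb10 0.5 (adjusted 0.892). With same-numbered Rad21 libraries paired, a sign-flip test gave p of 0.25 at the 4 loci and 0.5 at Dlk1 to Meg3 and Grb10.

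After Rad21 depletion, 4 of the 6 loci had groups that did not overlap (H19 to Igf2, Kcnq1, Grb10 and Plagl1), against 70.1% of 21768 windows. The exact permutation p was 0.33 at these, the lowest possible with 2 libraries a group (adjusted 0.472), 0.667 for Dlk1 to Meg3 (adjusted 0.883) and 1.0 for Cdkn1c. None of these designs could reach 0.05. Summed over the 8 loci, the mean number of CTCF peaks was 22.7 ± 1.15 for the parental line and 3.67 ± 1.15 after CTCF depletion (SD, n = 3 each). For Rad21 it was 24 ± 10.0 against 9.67 ± 2.52 (SD, n = 3 each) after CTCF depletion, and 12.5 ± 3.54 against 0.5 ± 0.707 (SD, n = 2 each) after Rad21 depletion.

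**Figure D5:**
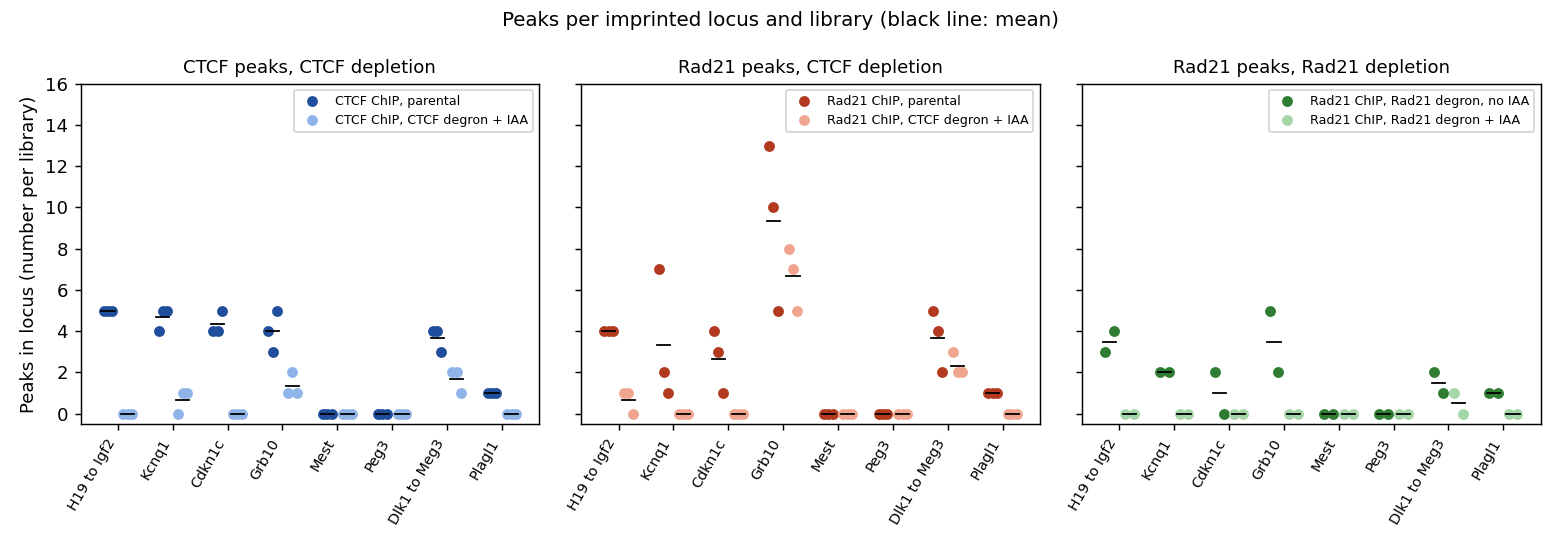
Number of peaks per locus and library (y axis) for the 8 loci (x axis), in 1 panel for each comparison, with points for libraries and black lines for group means. CTCF peaks go to 0 in all depleted libraries at H19 to Igf2, Cdkn1c and Plagl1, and Rad21 in Grb10 and Dlk1 to Meg3 overlaps between parental and CTCFdegron cells.

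A list of 48 other imprinted genes was treated in the same way. Of these, 46 were found in the annotation and 37 had windows outside the 8 loci. Their windows held 50 CTCF control sites, of which 40 (80.0%) were lost after CTCF depletion and 2 were kept in all 3 libraries, with 11.3% ± 6.43 (SD, n = 3) kept per library. Of 41 Rad21 control sites, 18 (43.9%) were lost after CTCF depletion and 9 were kept in all 3 libraries. After Rad21 depletion, 29 of 31 Rad21 sites were lost and 0 were kept in both libraries. The shares lost at these genes lay within 10 percentage points of those over the whole genome given above.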

How the data were processed

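The members and lists were chosen with earlier results of these data known. Reads were aligned to a hybrid of mm9 and a further sequence, per the labels, and Bowtie2 2.2.8 and SAMtools 1.8 are named in the submitters' processing notes. The peak caller and its threshold are not given in the sources used here. Each of the 16 deposited broadPeak lists belongs to 1 library. The authors' fold enrichment (a ratio) was used to describe, rank and filter peaks within a list. The deposited −log10 q-value served for 1 alternative, and the authors' deposited −log10 p-value and whole-number score were not tested. Human contigs of the 8 spike-in lists were left out, and the 8 inputs were not used.

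Overlap was at least 1 bp. A control site is a union of control peaks overlapped by every control library; lost means no depleted library overlaps it, and gained means peaks in every depleted library and no control library. Sites described singly lay within 5 kb of a transcript start, were among the 2 highest ranked CTCF or Rad21 control sites of a locus, or were kept or gained; sites 3 and 4 between H19 and Ins2, site 7 of Kcnq1, site 3 upstream of Dlk1 and site 2 of Cdkn1c were chosen after their values were seen. Peak numbers were compared by exact two-sided permutation tests that did not pair libraries. Same-numbered Rad21 libraries of the CTCF comparison deviated together (correlations of 0.24, 0.13 and 0.18 across sites), which was taken as pairing from the data; their spike-in also differs between replicate 1 and the others. The matrix was learned from the 5000 strongest CTCF sites, with a threshold met by 5% of windows 5 kb away. The site calls, window counts and permutation test were tested on simulated data, and the other steps were not. Python 3.11.15, numpy 2.4.6, scipy 1.17.1 and pysam 0.24.0 were used.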

Additional observations from a re-analysis of the deposited data

How the results depend on the processing

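Of 279 recalculations of the peak difference per locus, 265 kept their direction, 10 gave no difference and 4 reversed. Requiring 50% of the site covered, or taking sites of at least 1 control library, does not change the peak numbers of a locus. Leaving out Dlk1 to Meg3 does not change the other loci, and the replicate block changes no difference. Recalculations with these settings repeat the main value, so their direction was fixed in advance. All 4 reversals came from shortening every list to the shortest: CTCF in Kcnq1 (0.67), Rad21 after CTCF depletion in Grb10 (2.0) and Dlk1 to Meg3 (0.33), and Rad21 after Rad21 depletion in Dlk1 to Meg3 (0.5). The same shortening gave 6 of the 10 without a difference: CTCF in H19 to Igf2 and Cdkn1c, and, after Rad21 depletion, H19 to Igf2, Kcnq1, Cdkn1c and Plagl1. It leaves 3, 6 and 1 control sites in the loci in the 3 comparisons. The number of CTCF sites lost was 2 with shortened lists, 8 with 5 kb windows and 23 with sites of at least 1 control library, and the percent kept was 0.0 with 50% of the site covered, 4.44 at a q-value of 0.001 or less and 5.56 to 13.9 leaving out 1 library each. For Rad21 after CTCF depletion, the number lost was 3 with 5 kb, 2 with 50% covered, 25 with sites of at least 1 control library, and 6 to 11 leaving out 1 library each. Its percent kept was 28.6 at a q-value of 0.001 or less, 33.3 with shortened lists, 54.2 with 5 kb, 0.0 with 50% covered, 21.9 with sites of at least 1 control library and 32.8 with a replicate block. For Rad21 after Rad21 depletion, the number lost was 1 with shortened lists, 15 with sites of at least 1 control library and 8 to 14 leaving out 1 library each. The percent kept was 3.13 with sites of at least 1 control library, 0.0 to 3.33 leaving out 1 library each and 3.33 with a replicate block. The block left the CTCF percent kept at 9.09. Its sign-flip test cannot give a p below 0.25 with 3 libraries a group or 0.5 with 2, so no call could change. The numbers did not pair the libraries of the CTCF ChIP (correlations of 0.12, -0.03 and 0.07) or of the Rad21degron line (0.05). The difference between Rad21 sites at and away from CTCF sites was -5.56 at the q-value limit, 50.0 with shortened lists, 0.0 with 50% covered, 20.7 with sites of at least 1 control library, -34.8 in spike-in libraries alone, and -66.7 to -27.6 leaving out 1 library each. A matrix match in 100 bases was found at 7 sites. Apart from these, the cause of a change was not tested, and library depth, which is unknown, limits what a missing peak shows.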
